A study of Mus musculus with 4 samples.

Results

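The genes examined are 41 genes of glycolysis and the citric acid cycle, chosen by gene symbol from a fixed list of transporters, enzymes and regulators. All 41 are among the 23997 genes of the deposited expression table. Glycolysis splits glucose into pyruvate in the cytosol. Pyruvate is then either reduced to lactate or carried into mitochondria, where the pyruvate dehydrogenase (PDH) complex turns it into acetyl-CoA for the citric acid cycle. Many steps are served by several isozymes, and their mix differs between cell types. Hair cells (HCs), the sensory cells of the cochlea, are known as cells with a high energy demand.

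The RNA-Seq experiment compared Lgr5+ progenitors with Lgr6+ progenitors. The Lgr5+ progenitors are EGFP+ cells sorted from cochleae of Lgr5-EGFP-IRES-CreERT2 mice, and the Lgr6+ progenitors are EGFP+ cells sorted from cochleae of Lgr6-EGFP-IRES-CreERT2 mice. Both populations come from the C57BL/6 strain and from postnatal day 3, and each is defined by a reporter read from the *Lgr5* or the *Lgr6* gene, so a sorted cell is a cell with EGFP and not a named cell type. The labels list 2 libraries per population, 4 in all, while the methods describe 3 fractions taken from 1 RNA sample per population. Such fractions share one RNA extraction.

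Expression is given as FPKM, a fragment count scaled by transcript length and by the number of mapped fragments, so levels can be compared between genes. The authors' table holds 1 combined FPKM for each gene in each population. The libraries were not analysed one by one here, so no difference below has a replicate check and no test across samples was possible. Differences are on the log2(FPKM + 1) scale, with the Lgr5+ value subtracted from the Lgr6+ value, and adding 1 makes those of low genes too small. Genes were kept when they reached an FPKM of 1 in either population, which held for 13436 genes. A kept gene is described as higher in a population when the gap on this scale was 1.5-fold or more, a difference of 0.58 in log2 units.

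The libraries were compared first by genes that mark the sorted cells and other cochlear cells. *Lgr5* had an FPKM of 9.65 in Lgr5+ and 25.0 in Lgr6+ progenitors, and *Lgr6* had 2.06 and 2.90, so *Lgr5* was higher in the population sorted by the *Lgr6* reporter. *Sox2*, a marker of supporting cells, had 140 in Lgr5+ and 54.8 in Lgr6+ progenitors. These 3 genes belong to a list of 12 supporting cell and sorting markers. Of the 12, 5 were higher in Lgr5+ and 1 in Lgr6+ progenitors and 6 did not pass, with summed FPKM of 1546 and 765. Of 10 HC markers 7 were higher in Lgr6+ progenitors and none was higher in Lgr5+ progenitors, with summed FPKM of 930.2 and 1340. All 8 endothelial markers were higher in Lgr6+ progenitors, 3 of them kept only through that value, with sums of 32.0 and 176. Of 10 macrophage markers, 8 were kept, each through its Lgr6+ value alone, so all 8 had to lie higher there. Their list summed to 1.81 and 267, and *C1qb*, *C1qc*, *Tyrobp*, *Csf1r*, *Aif1* and *Ptprc* were listed at 0 in Lgr5+ progenitors. Of 8 Schwann cell and glial markers, 6 were kept, 3 were higher in Lgr6+ and 1 in Lgr5+ progenitors, with sums of 182 and 333. *Pmp22*, 1 of the 3, was kept only through its Lgr6+ value. Of 9 fibrocyte and mesenchyme markers, 5 were higher in Lgr6+ and 1 in Lgr5+ progenitors, with sums of 325 and 602. Of 10 neuron markers, 9 were kept, with 2 higher in each population and sums of 137 and 161. *Tubb3*, 1 of the 2 higher in Lgr5+ progenitors, was kept only through its Lgr5+ value. Of 8 red cell markers, 6 were kept and 4 were higher in Lgr5+ progenitors, with sums of 946 and 413. Of these 4, *Hba-a1* and *Hba-a2*, listed at the same locus, were kept only through their Lgr5+ value and so had to lie higher there. Of the 4 red cell markers that reached an FPKM of 1 in both populations, 2 were higher in Lgr5+ progenitors. Beside all these counts, 28.5% of all kept genes were higher in Lgr6+ and 23.3% in Lgr5+ progenitors. The part of these other cells in the differences below was not tested. In such pooled cells, fewer cells of a type and less RNA per cell cannot be told apart.

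All 41 genes were kept and none was listed at 0. They summed to an FPKM of 4274 in Lgr5+ and 4030.4 in Lgr6+ progenitors, which is 0.567% and 0.642% of all FPKM. Of the 41 genes, 13 were higher in Lgr6+ and 5 in Lgr5+ progenitors. Among all kept genes, 28.5% were higher in Lgr6+ and 23.3% in Lgr5+ progenitors by the same rule. The median difference of the 41 genes was 0.25, beside 0.03 over all kept genes. Of the 13 genes, 3 (*Slc2a3*, *Slc16a1* and *Pdk4*) were kept only through their Lgr6+ value and so had to lie higher there. With that FPKM of 1 asked of both populations, 10 and 5 of 38 genes passed and the median was 0.22, beside 21.4% and 22.5% of the 11177 genes that met this. When both columns were scaled to the same sum of FPKM, the median of all kept genes moved to 0.27. Then 19 of the 41 genes were higher in Lgr6+ and 1 in Lgr5+ progenitors, beside 37.2% and 16.5% of all kept genes.

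**Figure D1:**
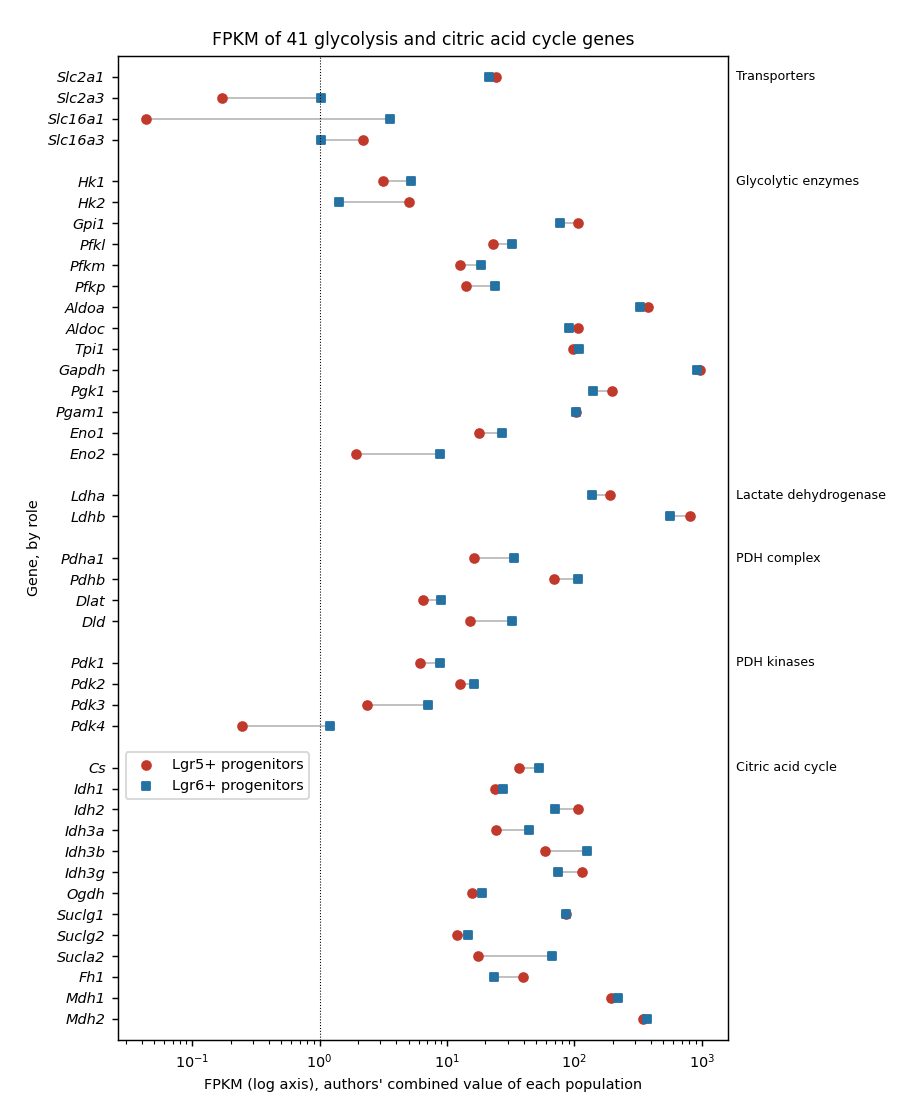
FPKM of each of the 41 genes on a log axis, as the authors' combined value of Lgr5+ progenitors (red circles) and Lgr6+ progenitors (blue squares), grouped by role, with a dotted line at an FPKM of 1. *Gapdh* and *Ldhb* lie highest in both populations, and the widest gaps are those of *Slc16a1*, *Slc2a3*, *Pdk4*, *Eno2* and *Sucla2*.

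The genes were next grouped by role. The PDH complex and its kinases lay to the Lgr6+ side in 8 of 8 genes, beside 6942 of all 13436 kept genes. Of these 8 genes 5 passed, beside 28.5% of all kept genes. The 5 include *Pdk4*, kept only through its Lgr6+ value, and 4 of the other 7 passed, beside 21.4% of genes that reached an FPKM of 1 in both populations. The 13 citric acid cycle and isocitrate dehydrogenase genes had 3 higher in each population, 23.1% each way. Their median of 0.20 is the value of the cytosolic *Idh1*. The 14 glycolytic enzymes had 3 higher in Lgr6+ (21.4%), 1 higher in Lgr5+ progenitors (7.1%) and a median of 0.06. Both groups stand beside 28.5% of all kept genes higher in Lgr6+ and 23.3% in Lgr5+ progenitors. Both lactate dehydrogenase genes lay to the Lgr5+ side without passing. In 3 other scalings of the columns, 10 genes stayed higher in Lgr6+ progenitors in each case, namely *Slc16a1*, *Pfkp*, *Eno2*, *Pdha1*, *Pdhb*, *Dld*, *Pdk3*, *Idh3a*, *Idh3b* and *Sucla2*. *Hk2* was the 1 gene that stayed higher in Lgr5+ progenitors in each. Of the 3 scalings, the same upper quartile moved differences by only about -0.0017. The same sum of FPKM moved them by up to 0.26 toward Lgr6+ progenitors. Neither could remove a call toward Lgr6+ progenitors here, so only quantile normalization could. It removed those of *Slc2a3*, *Hk1* and *Pdk4*.

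**Figure D2:**
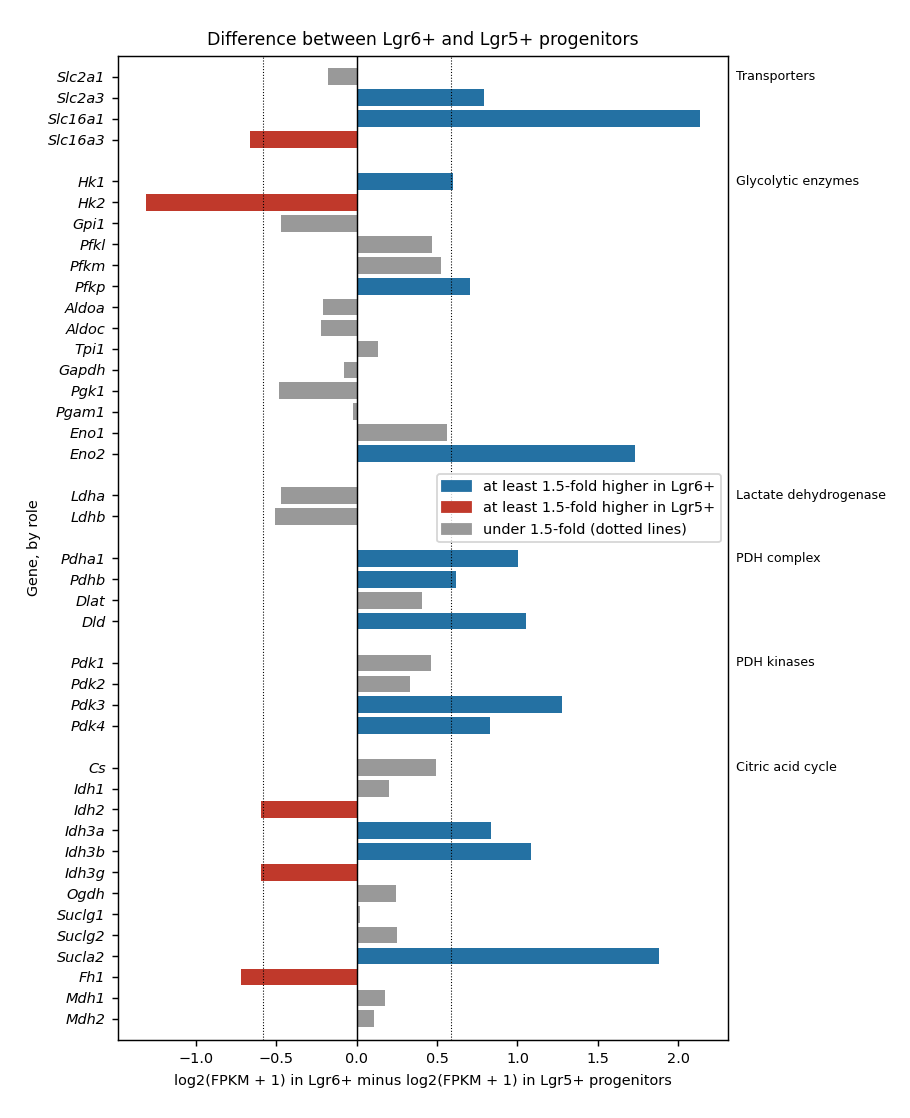
Difference of each gene as log2(FPKM + 1) in Lgr6+ minus Lgr5+ progenitors, with bars coloured by whether the difference reaches 1.5-fold (dotted lines) and 1 combined value per population behind each bar. All bars of the PDH complex and the PDH kinases point to Lgr6+ progenitors, and *Hk2* has the longest bar toward Lgr5+ progenitors.

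Differences depended on the level of a gene across the whole table. Among 2274 kept genes that reached an FPKM of 50 in either population, 14.9% were higher in Lgr6+ and 29.1% in Lgr5+ progenitors, and their median was -0.21. For the 5350 kept genes from 10 to 50 the median was -0.01, and for the 5812 kept genes from 1 to 10 it was 0.23. The members' medians in these bands, from high to low, were -0.052 for 18 genes, 0.47 for 13 genes and 0.69 for 10 genes. Each lay above the median of all kept genes of its band. In the highest band, the 9 genes of glycolysis and lactate had a median of -0.22 and the 9 genes of mitochondrial entry and the cycle had a median of 0.17, which is the value of the cytosolic *Mdh1*. Without *Mdh1* the median of the other 8 was 0.30. None of the former 9 passed, while 3 of the latter 9 were higher in Lgr6+ and 2 in Lgr5+ progenitors. From 10 to 50 the order was the other way, and 5 genes of transport, glycolysis and lactate had a median of 0.53. The 8 genes of mitochondrial entry and the cycle in that band had 0.29. From 1 to 10 the medians of these groups were 0.69 for 6 genes and 0.64 for 4 genes. The 6 include *Slc2a3* and *Slc16a1* and the 4 include *Pdk4*, all kept only through their Lgr6+ value. This raises both medians and that of all 10, so no order is read in this band. The rest of the 6 were *Slc16a3* (-0.67), *Hk1* (0.60), *Hk2* (-1.31) and *Eno2* (1.73). The rest of the 4 were *Dlat* (0.40), *Pdk1* (0.46) and *Pdk3* (1.28). The bands and the median without *Mdh1* were chosen after the values were seen.

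**Figure D3:**
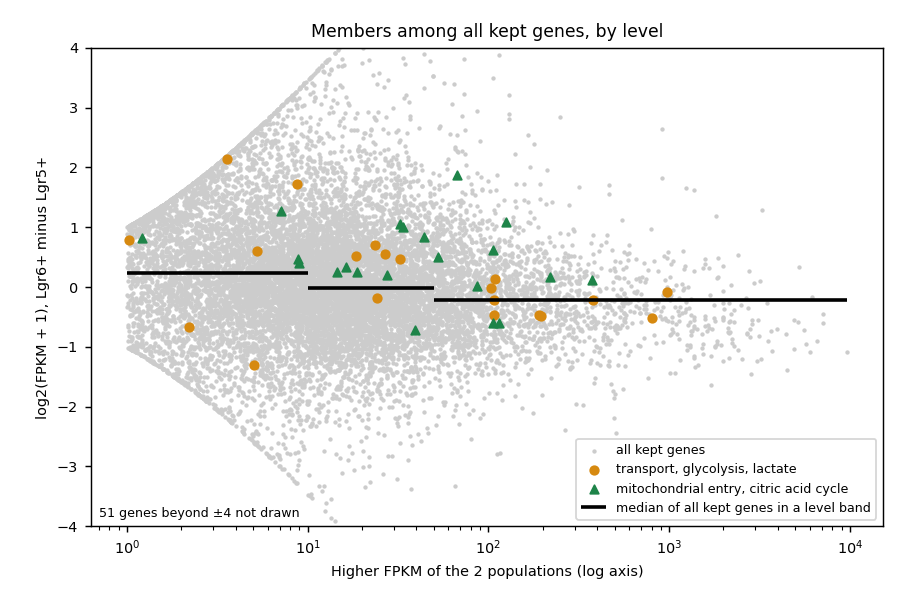
Difference of each kept gene against the higher of its FPKM values, on a log axis, with genes of transport, glycolysis and lactate as orange circles, genes of mitochondrial entry and the citric acid cycle, the cytosolic *Idh1* and *Mdh1* included, as green triangles and black lines for the median of all kept genes in 3 bands of level. The black lines step down from 0.23 to -0.21 with level, and 51 kept genes beyond 4 on the log2 scale are not drawn.

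Promoter sequences are shown for members at the ends of the differences. Of these, *Sucla2*, *Idh3b*, *Dld* and *Pdha1* passed 2-fold toward Lgr6+ progenitors and reached an FPKM of 10 in each population, and *Hk2* and *Fh1* had the largest differences toward Lgr5+ progenitors. Each is the 250 bases before the annotated start in RefSeq, build GRCm38.p6, written 5′ to 3′ along the gene's strand. The windows are chr14:73552536-73552785 on the plus strand for *Sucla2* and, on the minus strand, chr2:130284452-130284701 for *Idh3b*, chr12:31351472-31351721 for *Dld*, chrX:160138431-160138680 for *Pdha1*, chr6:82774455-82774704 for *Hk2* and chr1:175625636-175625885 for *Fh1*. Capitals mark ACGTG or GCGTG on either strand, the core letters bound by hypoxia-inducible factor (HIF), which is known to induce many glycolytic genes.
Sucla2: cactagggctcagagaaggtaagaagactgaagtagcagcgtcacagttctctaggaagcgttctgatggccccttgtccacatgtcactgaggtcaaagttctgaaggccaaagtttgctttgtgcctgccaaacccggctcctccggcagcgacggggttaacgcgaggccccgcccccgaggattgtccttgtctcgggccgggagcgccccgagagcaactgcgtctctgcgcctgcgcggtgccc
Idh3b: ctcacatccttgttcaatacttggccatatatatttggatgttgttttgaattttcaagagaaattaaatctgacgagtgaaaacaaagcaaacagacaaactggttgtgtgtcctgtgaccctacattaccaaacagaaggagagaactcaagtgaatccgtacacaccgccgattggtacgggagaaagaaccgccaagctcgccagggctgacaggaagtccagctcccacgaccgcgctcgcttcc
Dld: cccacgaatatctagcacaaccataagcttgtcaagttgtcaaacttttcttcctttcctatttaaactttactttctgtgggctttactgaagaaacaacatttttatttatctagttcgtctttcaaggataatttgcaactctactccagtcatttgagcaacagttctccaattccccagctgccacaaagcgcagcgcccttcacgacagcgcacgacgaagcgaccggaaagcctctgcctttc
Pdha1: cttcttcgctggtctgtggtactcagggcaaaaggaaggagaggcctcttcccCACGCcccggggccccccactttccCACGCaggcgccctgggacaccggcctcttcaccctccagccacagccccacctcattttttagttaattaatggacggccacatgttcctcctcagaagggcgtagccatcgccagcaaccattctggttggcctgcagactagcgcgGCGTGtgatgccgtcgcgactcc
Hk2: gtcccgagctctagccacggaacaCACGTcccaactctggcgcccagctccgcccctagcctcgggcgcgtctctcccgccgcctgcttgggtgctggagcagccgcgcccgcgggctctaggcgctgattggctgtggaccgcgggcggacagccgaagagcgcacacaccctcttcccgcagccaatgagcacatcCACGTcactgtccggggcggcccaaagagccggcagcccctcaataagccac
Fh1: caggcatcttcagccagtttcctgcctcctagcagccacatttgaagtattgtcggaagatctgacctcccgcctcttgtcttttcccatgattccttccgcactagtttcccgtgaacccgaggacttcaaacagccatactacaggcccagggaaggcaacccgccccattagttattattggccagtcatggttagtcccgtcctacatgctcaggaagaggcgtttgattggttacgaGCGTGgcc
The *Pdha1* window held 3 matches, the *Hk2* window 2 and the *Fh1* window 1, while those of *Sucla2*, *Idh3b* and *Dld* held none. RefSeq windows were found for 39 of the 41 members, 57 windows in all, and 30 of the 39 genes (76.9%) had a match in at least 1 window. Of 27025 genes in the promoter table, 41.5% had one. Counted by window, the shares were 73.7% for the members and 38.6% of all 32851 windows. The median GC content of the windows was 60.4% for the members and 52.4% for all, and its part in these shares was not tested. By direction, 7 of 11 members higher in Lgr6+ progenitors and 5 of 5 higher in Lgr5+ progenitors had a match. The E-box CACGTG, which contains ACGTG and is bound by Myc and related factors, was in a window of 5 of the 39 members (12.8%) and of 6.86% of all genes. A match is a run of letters and not a shown binding site.

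Glucose enters cells through facilitative transporters, and lactate and pyruvate cross the membrane through monocarboxylate transporters. *Slc2a1*, which encodes the widespread glucose transporter GLUT1, had an FPKM of 24.2 in Lgr5+ and 21.3 in Lgr6+ progenitors. Its difference of -0.18 was small and changed sign when the columns were scaled to the same sum. *Slc2a3*, the gene of the high-affinity transporter GLUT3 of neurons, had 0.172 and 1.03, so *Slc2a1* was by far the higher of this pair in both populations.

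*Slc16a1*, on chromosome 3 from 104638664 to 104658462, encodes the monocarboxylate transporter MCT1 and had an FPKM of 0.0434 in Lgr5+ and 3.59 in Lgr6+ progenitors, a difference of 2.14. *Slc16a3*, the gene of MCT4, which exports lactate from glycolytic cells, had 2.21 and 1.02, a difference of -0.67. The pair thus lay on opposite sides, and *Slc16a1* made up 77.9% of its FPKM in Lgr6+ progenitors. The low values rest on few fragments. Low FPKM values of the table fall on steps, which if 1 step is 1 fragment stand for about 7834300 fragments in Lgr5+ and 25118900 in Lgr6+ progenitors. By the longest annotated transcript, the Lgr5+ value was 1.44 steps for *Slc16a1*, 5.06 steps for *Slc2a3* and 6.31 steps for *Pdk4*. Their Lgr6+ values stood for 381, 97.2 and 99.6 steps, and no ratio of FPKM is given for these 3 genes.

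Hexokinases commit glucose to the cell by phosphorylating it. *Hk2*, on chromosome 6 from 82725027 to 82774454, encodes the isozyme that is induced in growing and hypoxic cells and had an FPKM of 5.03 in Lgr5+ and 1.43 in Lgr6+ progenitors. It was 3.52-fold higher in Lgr5+ progenitors as a ratio of FPKM, a difference of -1.31, the largest toward Lgr5+ progenitors among the 41 genes. *Hk1*, the housekeeping isozyme, had 3.13 and 5.24, a difference of 0.60 that lay just past the threshold and missed it after quantile normalization. *Hk1* made up 38.3% of the hexokinase FPKM in Lgr5+ and 78.6% in Lgr6+ progenitors. The antisense gene *Hk1os* shares the locus of *Hk1* and had 1.99 and 21.6. Whether fragments were counted by strand is not given in the sources used here, so the reads of these partners cannot be told apart.

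Phosphofructokinase sets the pace of glycolysis, and its 3 genes lay to the Lgr6+ side together. *Pfkp* (platelet type) had an FPKM of 14.1 and 23.7 in Lgr5+ and Lgr6+ progenitors, a difference of 0.71. *Pfkl* (liver type) had 23.2 and 32.5 and *Pfkm* (muscle type) had 12.6 and 18.6, differences of 0.47 and 0.53 that did not pass. The mix was alike, with *Pfkl* at 46.4% and 43.4% of their sum. The locus listed for *Pfkp* is shared with *Pitrm1*, which lay the other way with 11.1 and 4.04, and their sums were 25.2 and 27.8. That of *Pfkm* is shared with *Senp1*, which had 6.39 and 3.33, with sums of 18.97 and 21.9. How fragments were split between such partners is uncertain, and so are the differences of *Pfkp* and *Pfkm*.

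Apart from *Pgk1* and enolase, given below, the members between phosphofructokinase and pyruvate were abundant and close in both populations. *Gapdh*, on chromosome 6 from 125161852 to 125166467, encodes the enzyme that makes glycolytic NADH and had the highest FPKM of the members, 974 and 921. *Aldoa* had 379 and 328 and *Aldoc*, the aldolase of brain, had 107 and 91.6, so *Aldoa* made up 78.0% and 78.2% of the aldolase FPKM. *Tpi1*, which interconverts the 3-carbon sugars, had 98.4 and 108, and *Pgam1*, a phosphoglycerate mutase, had 104 and 102. Differences of these 5 genes ran from -0.22 to 0.13, and *Gapdh*, *Aldoa*, *Aldoc* and *Pgam1* changed sign under another scaling.

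*Gpi1*, which turns glucose 6-phosphate into fructose 6-phosphate, had an FPKM of 107 in Lgr5+ and 77.4 in Lgr6+ progenitors, and *Pgk1*, the first ATP-making step, had 196 and 140.4. Their differences of -0.47 and -0.48 did not pass. Several of these genes, *Gapdh* above all, are known to have processed pseudogene copies, so the placing of their reads is uncertain.

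Both enolase genes among the members lay to the Lgr6+ side. *Eno2*, the enolase of neurons and neuroendocrine cells, had an FPKM of 1.94 in Lgr5+ and 8.76 in Lgr6+ progenitors, 4.51-fold higher and a difference of 1.73. Its gene lies on chromosome 6 from 124760055 to 124769509. The share of *Eno2* in the sum of *Eno1* and *Eno2* was 9.78% and 24.6%. This sum leaves out *Eno3*, a further enolase gene that is not among the 41 genes. *Eno3* had 41.4 and 47.0, above *Eno1* and *Eno2* in both populations, and did not pass. Of 9 kept neuron markers, 2 were higher in each population and 5 did not pass. Among those that passed, *Snap25* had 7.63 and 53.4, and *Syt1* had 31.0 and 17.2. *Tubb3*, kept only through its Lgr5+ value, had 1.18 and 0.0959. The part of neurons in the difference of *Eno2* was not tested. *Eno1*, the widespread enolase, had 17.9 and 26.9, a difference of 0.56 just short of the threshold. The near-identical copy *Eno1b* is listed at the same locus with 5.78 and 15.1, so the split between them is uncertain, and their sums were 23.7 and 41.98.

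Lactate dehydrogenase interconverts pyruvate and lactate. *Ldhb*, on chromosome 6 from 142490249 to 142507943, encodes the heart-type subunit and had an FPKM of 809 in Lgr5+ and 567 in Lgr6+ progenitors, a difference of -0.51. *Ldha*, the muscle-type subunit, had 192 and 138, a difference of -0.47. Neither passed, and both stayed negative in every scaling tried. *Ldhb* was 4.22 times *Ldha* in Lgr5+ and 4.11 times in Lgr6+ progenitors, so the level of the pair differed more than its mix.

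The PDH complex links glycolysis to the citric acid cycle. *Pdha1*, the catalytic E1 alpha subunit, had an FPKM of 16.2 in Lgr5+ and 33.6 in Lgr6+ progenitors, 2.07-fold higher and a difference of 1.01. *Dld*, the shared E3 subunit, on chromosome 12 from 31331562 to 31351471, had 15.1 and 32.5, 2.15-fold higher and a difference of 1.06. *Pdhb*, the E1 beta subunit, had 69.1 and 106, a difference of 0.62 just past the threshold. *Dlat*, the E2 core subunit, had 6.54 and 8.97, a difference of 0.40 that did not pass. The listed locus of *Pdha1*, on chromosome X from 159988433 to 160138336, is shared with *Map3k15*, which had an FPKM of 0.530 and 0.0415. These 4 genes summed to 107 and 181, and the highest and lowest subunits, *Pdhb* and *Dlat*, were the same in both populations. *Pdhx*, a further component that is not among the 41 genes, had 12.5 and 14.4 and did not pass.

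PDH kinases switch the complex off by phosphorylating the E1 alpha subunit. *Pdk3* had an FPKM of 2.37 in Lgr5+ and 7.16 in Lgr6+ progenitors, 3.02-fold higher and a difference of 1.28. *Pdk4*, the kinase induced by fasting and fat use, had 0.245 and 1.21, and its difference of 0.83 was 0.37 after quantile normalization. *Pdk2*, the highest of the kinases, had 12.6 and 16.2, and *Pdk1*, a known HIF target, had 6.18 and 8.88. Their differences of 0.33 and 0.46 did not pass. *Pdk2* made up 58.98% of the kinase FPKM in Lgr5+ and 48.4% in Lgr6+ progenitors, and *Pdk3* 11.1% and 21.4%.

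In the citric acid cycle the widest difference was in succinyl-CoA ligase, which makes ATP or GTP directly. *Sucla2*, on chromosome 14 from 73552786 to 73596142, encodes the ADP-forming beta subunit and had an FPKM of 17.4 in Lgr5+ and 66.8 in Lgr6+ progenitors. It was 3.83-fold higher in Lgr6+ progenitors, a difference of 1.88. *Suclg2*, the GDP-forming beta subunit, had 12.1 and 14.6, a difference of 0.25. The ratio of *Sucla2* to *Suclg2* was thus 1.44 in Lgr5+ and 4.59 in Lgr6+ progenitors. *Suclg1*, the alpha subunit that pairs with either, had 85.6 and 86.7, a difference of 0.02.

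The subunits of the NAD-dependent isocitrate dehydrogenase lay on opposite sides. *Idh3b*, on chromosome 2, had an FPKM of 58.6 in Lgr5+ and 125 in Lgr6+ progenitors, 2.14-fold higher and a difference of 1.09. *Idh3a*, the catalytic subunit, had 24.3 and 44.2, a difference of 0.84. *Idh3g* had 114 and 75.1, 1.52-fold higher in Lgr5+ progenitors and a difference of -0.59, just past the threshold. The ratio of *Idh3b* to *Idh3g* was 0.514 in Lgr5+ and 1.67 in Lgr6+ progenitors. The locus listed for *Idh3b* is shared with the nucleolar protein gene *Nop56*, which lay the other way with 144 and 71.1. Their sums of 203 and 197 were close, so the fold of *Idh3b* and its ratio to *Idh3g* are uncertain if fragments were split wrongly between them.

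The NADP-dependent isocitrate dehydrogenases, which supply NADPH, did not lie to 1 side. *Idh2*, the mitochondrial form, had an FPKM of 106 in Lgr5+ and 70.04 in Lgr6+ progenitors, a difference of -0.60 just past the threshold. *Idh1*, the cytosolic form, had 23.8 and 27.5, a difference of 0.20. *Idh2* made up 81.7% of the pair in Lgr5+ and 71.8% in Lgr6+ progenitors.

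*Fh1*, on chromosome 1 from 175601378 to 175625635, encodes fumarase and had an FPKM of 39.3 in Lgr5+ and 23.4 in Lgr6+ progenitors, a difference of -0.72. *Cs*, citrate synthase, which opens the cycle, had 37.05 and 52.6, and *Ogdh*, the E1 subunit of the oxoglutarate dehydrogenase complex, had 15.6 and 18.7. Their differences of 0.49 and 0.25 did not pass. *Mdh2*, the mitochondrial malate dehydrogenase, had 345 and 373 and *Mdh1*, the cytosolic form, had 196 and 221. These were the highest members of the cycle in both populations, and *Mdh2* stood at 1.77 and 1.69 times *Mdh1*. The calls of *Fh1*, *Idh2* and *Idh3g* toward Lgr5+ progenitors were lost when the columns were scaled to the same sum, with differences of -0.47, -0.33 and -0.33, and those of *Idh2* and *Idh3g* also after quantile normalization.

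Other genes of the same pathways were taken from a list fixed apart from the 41. Of 35 such genes 23 were kept, and 5 were higher in Lgr6+ and 3 in Lgr5+ progenitors. Both counts are smaller shares than the 28.5% and 23.3% of all kept genes. The median of the 23 genes was 0.18, beside 0.03 over all kept genes. Of the genes that passed, *Slc16a7* and *Pdp1* were kept through 1 population alone. *Mpc1*, a subunit of the mitochondrial pyruvate carrier, had an FPKM of 53.5 in Lgr5+ and 212 in Lgr6+ progenitors, a difference of 1.96. Its partner *Mpc2* had 126 and 149, a difference that did not pass. *Slc16a7*, the monocarboxylate transporter MCT2, had 0.116 and 3.48, and *Ldhc*, the lactate dehydrogenase known from testis, had 9.90 and 1.80. *Pdp1*, a phosphatase that turns the PDH complex back on, had 1.77 and 0.323, and *Ldhd*, a D-lactate dehydrogenase, had 1.08 and 2.79. *Pkm*, pyruvate kinase, had 217 and 201, and did not pass.

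The pentose phosphate pathway branches from glycolysis and yields NADPH and ribose. Of its 9 genes 8 were kept, and 3 were higher in Lgr5+ and 1 in Lgr6+ progenitors, beside 23.3% and 28.5% of all kept genes. *Tkt*, transketolase, had an FPKM of 57.6 in Lgr5+ and 14.4 in Lgr6+ progenitors, a difference of -1.93. *Pgls*, the lactonase, had 429 and 191, and *Rpia*, the ribose phosphate isomerase, had 9.85 and 4.81. *G6pdx*, the first enzyme of the branch, lay the other way with 9.04 and 19.7. Of 11 genes that control or reverse glycolysis 10 are in the table and 6 were kept. *Pfkfb2*, which makes and removes the activator of phosphofructokinase, had 7.19 and 18.6, while *Pfkfb3* had 2.75 and 1.04. *Pfkfb1* had 1.39 in Lgr5+ progenitors and was listed at 0 in Lgr6+ progenitors.

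Among 13 genes of NADH shuttles and citrate export, 12 were kept and 10 did not pass. In each population 1 of the 12 was higher, beside 28.5% of all kept genes for Lgr6+ and 23.3% for Lgr5+ progenitors. *Gpd1l* had an FPKM of 5.97 in Lgr5+ and 1.66 in Lgr6+ progenitors, and *Gpd2*, the mitochondrial glycerol phosphate dehydrogenase, had 3.97 and 6.94. HIF genes and HIF targets outside glycolysis did not lie to 1 side. Of 22 genes, all kept, 8 (36.4%) were higher in Lgr5+ and 6 (27.3%) in Lgr6+ progenitors, beside 23.3% and 28.5% of all kept genes. Their median was 0.03, and *Egln3* and *Car9* were kept through 1 population alone. *Vegfa*, the vascular growth factor, had 38.2 in Lgr5+ and 12.3 in Lgr6+ progenitors and *Adm*, adrenomedullin, had 5.40 and 2.09. *Car9*, a carbonic anhydrase and HIF target, had 0.219 and 14.8, the largest difference of the list at 3.70, and *P4ha1*, a collagen prolyl hydroxylase subunit, had 4.41 and 10.7. *Hif1an*, an inhibitor of HIF, had 8.76 and 3.39, and *Hif1a* itself had 34.4 and 39.3.

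**Figure D4:**
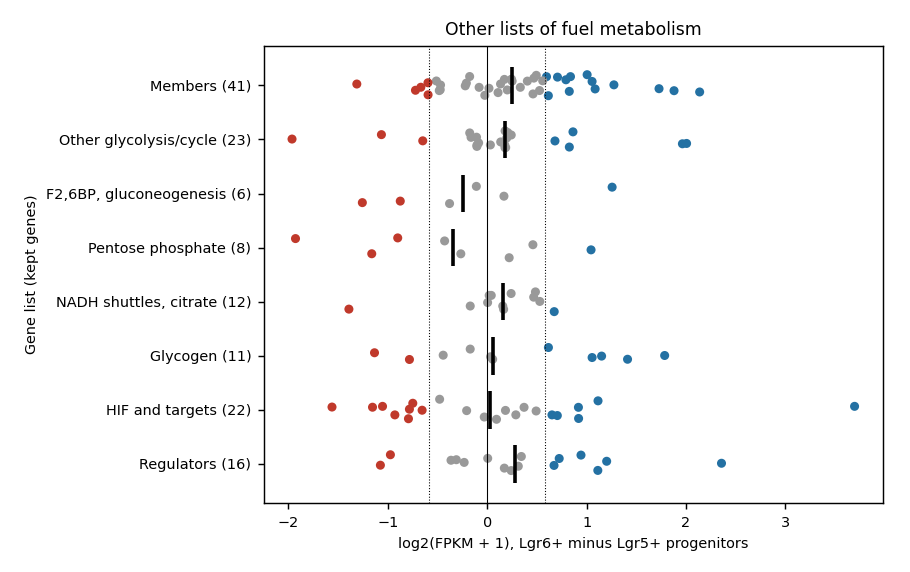
Difference of each kept gene, as log2(FPKM + 1) in Lgr6+ minus Lgr5+ progenitors, for the 41 members and 7 further lists of fuel metabolism, with red and blue points past 1.5-fold toward Lgr5+ and Lgr6+ progenitors, grey points under it, a black bar at each median, the number of kept genes in brackets, dotted lines at 1.5-fold and a vertical spread for legibility only. The pentose phosphate list has the lowest median, -0.35, and *Car9* is the point farthest to the right at 3.70.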

How the data were processed

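RNA-Seq was analysed from 1 table with 1 FPKM value per gene and population. Per the file headers and the paper's methods, the authors trimmed reads with Trimmomatic, mapped them with TopHat, annotated genes with RefGene and computed FPKM with Cufflinks after low-input cDNA amplification, with versions not given in the sources used here. Libraries of a population were combined by the authors, and the table gives no depth. The paper states a range of reads per sample but no depth for a combined column, so intervals for counting error were not computed. The table's fold changes, p-values and q-values of the authors' own comparison were not used. The paper names mm9 and the submitters' processing notes name mm10. Of loci with a matching symbol, 98.8% overlapped the gene in GRCm38.p6 and 12.7% in NCBIM37, so positions are read as GRCm38. Starts were raised by 1 base, since the table counts from 0.

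Differences were computed on log2(FPKM + 1) with Python 3.11.15, numpy 2.4.6 and pandas 2.3.3, and figures were drawn with matplotlib 3.10.9. The calling step was tested on simulated data. A limma fit had been foreseen only for a table with a column per library. Fragment steps used FPKM times transcript length less 200 bases, with lengths from the NCBIM37 annotation. The members and lists were chosen with earlier results of these data known. Values are given for members past 1.5-fold, members under an FPKM of 1, the ends of each role group and isozyme sets, and for up to 5 genes per other list. Genes sharing a locus with a member were named after their values were seen. So were *Lgr5*, *Lgr6*, *Sox2*, *Pkm*, *Mpc2*, *Pdhx*, *Eno3*, *Egln3*, *Mlxipl* and *Hif1a*, and *Snap25*, *Syt1* and *Tubb3* as neuron markers.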

Additional observations from a re-analysis of the deposited data

How the results depend on the processing

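The counts and the median of the 41 genes have no replicate check, so these alternatives change only the processing. Of the 41 genes, 5 were higher in Lgr5+ and 13 in Lgr6+ progenitors, with a median of 0.25. After quantile normalization 3 were higher in Lgr5+ progenitors, beside 25.5% of all kept genes. With the same sum of FPKM in both columns 1 was, beside 16.5% of all kept genes, and the median of the 41 genes was 0.50. With a 2-fold threshold 1 and 7 genes passed, beside 11.7% and 18.2% of all kept genes. Among genes reaching an FPKM of 50 in either population, a limit chosen after seeing the data, 2 and 3 of 18 passed and the median was -0.052. The same upper quartile, pseudocounts of 0.1 and of none, no filter, a minimum FPKM of 5 and the FPKM minimum asked of both populations left the counts within 1.5 times and the median within 0.1. Of 321 values of single genes under alternatives, 238 lay within 0.1 of the reported difference, 83 moved further and none of a gene past 1.5-fold changed sign. Filters leave the value of a gene unchanged and the same upper quartile hardly moves it, so many of the 238 were fixed in advance. Pseudocounts and the 2 scalings by a constant could not change the sign of a gene past 1.5-fold. Only quantile normalization could. No paired analysis was possible because the table holds 1 combined value per population, and leaving out each replicate was not run for the same reason. Depth limits the genes under an FPKM of 1 in Lgr5+ progenitors.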

Other observations

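Genes of glycogen metabolism were not covered above. All 11 were kept, and 5 were higher in Lgr6+ and 2 in Lgr5+ progenitors, beside 28.5% and 23.3% of all kept genes. *Pygm* and *Gys2* were kept only through their Lgr6+ value, and of the other 9 genes 3 and 2 passed. *Pgm2*, a phosphoglucomutase, had an FPKM of 8.29 in Lgr5+ and 31.0 in Lgr6+ progenitors, a difference of 1.79, and *Gbe1*, the branching enzyme, had 6.66 and 16.01. *Gys2*, the liver-type glycogen synthase, was listed at 0 in Lgr5+ and had 1.66 in Lgr6+ progenitors. Of the glycogen phosphorylases, *Pygl* had 8.75 and 3.45, while *Pygm* had 0.669 and 2.47.

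Of 19 regulators of mitochondrial and glucose metabolism 16 were kept, and 6 were higher in Lgr6+ and 2 in Lgr5+ progenitors, beside the same 28.5% and 23.3%. *Myc* and *Mlxipl* were kept only through their Lgr6+ value, and of the 13 genes that reached an FPKM of 1 in both populations 4 and 2 passed. *Ppargc1b*, a coactivator of mitochondrial genes, had an FPKM of 1.33 in Lgr5+ and 10.9 in Lgr6+ progenitors, a difference of 2.36. *Esrra*, the nuclear receptor it is known to act with, lay the other way with 15.8 and 6.999. *Prkaa2*, a catalytic subunit of the AMP-activated kinase, had 5.42 and 13.8, *Myc* had 0.0740 and 1.32, and *Trp53* had 26.9 and 13.2.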
